A study of Mus musculus with 6 samples.

Results

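Neuropeptide precursor genes encode the proteins from which neurons cut short signalling peptides. The 10 members described here are Sst, Npy, Trh, Tac1, Penk, Pdyn, Cck, Vip, Nts and Gal, taken as the rows of the 6 gene abundance tables whose gene name equals a member. Each name matched exactly 1 of 46517 gene IDs. The tables come from E14TG2a, a wild-type mouse embryonic stem cell line, sequenced as RNA from cultures at 3 stages with 2 libraries each: feeder-free stem cells in serum and LIF (mESC, treatment none), progenitors (NPC, treatment neuronal differentiation) and a last stage called NC (treatment neuronal differentiation). NC is taken here as the terminally differentiated glutamatergic neurons that the study's design text lists after the progenitors, because the labels leave the letters unexplained. The labels give every library the cell type embryonic stem cells and the tissue blastocyst, which is the origin of the line. All 3 stages derive from the same line, and the design text calls the 2 libraries of a stage biological replicates without saying whether stages share a culture or a day.

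A precursor is cut in the secretory pathway by prohormone convertases, trimmed by a carboxypeptidase and often amidated, then stored with granin proteins in dense-core vesicles and released to act on G protein-coupled receptors. In the brain and spinal cord these peptides are made together with a fast transmitter. Somatostatin and neuropeptide Y are classic products of inhibitory interneurons, and tachykinins, enkephalins, dynorphins, neurotensin and galanin are made in many dorsal horn neurons. Because RNA was taken from whole cultures, more cells of a type and more RNA per cell cannot be told apart.

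Values are TPM (transcripts scaled to a common library total), a level that also allows for gene length, so levels may be set beside each other between genes. The libraries held 1.57 to 2.27 Gb of aligned bases. Stem cell markers summed to 6007 and 5889 TPM in mESC and to 21.5 to 30.0 TPM in the other 4 libraries, and 8 neuron markers summed to 3946 and 3579 TPM in NC. The same 8 neuron markers summed to 253 and 317 TPM in mESC and to 598 and 926 TPM in NPC. Among neuron types, the 9 GABAergic markers summed to 337 and 298 TPM in NC, the 6 glutamatergic markers to 262 and 207 TPM, and 7 markers of dorsal spinal and brainstem neurons to 584 and 639.7 TPM. In mESC these 3 sums were 17.1 and 8.90 TPM, 80.0 and 52.8 TPM, and 1.37 and 1.23 TPM. In NPC they were 18.6 and 36.4 TPM, 77.5 and 91.2 TPM, and 140 and 219 TPM. Of 7 cortical projection neuron markers, 4 reached 1 TPM in NC replicate 1 and 2 in NC replicate 2, with the defining factors Tbr1 at most at 0.502 TPM and Fezf2 at 0.262 and 0.283 TPM. All 37 mitochondrial genes were listed at 0 in all 6 libraries, so an exact 0 is given below only as listed at 0.

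The precursor set was carried by a single gene at every stage, and the leading gene changed. The 10 members summed to 564 and 669.9 TPM in mESC, of which Trh made up 98.9% and 99.0%. They summed to 89.5 and 136 TPM in NPC, with Sst at 96.8% and 96.9%. In NC the sums were 356 and 659.7 TPM, and Sst held 70.2% and 94.8%. Without Trh and Sst, the other 8 members summed to 6.12 and 6.41 TPM in mESC, 1.96 and 3.11 TPM in NPC, and 106 and 33.7 TPM in NC. Both NC libraries therefore lay above all 4 earlier libraries in this remainder, and NC replicate 1 was the higher of the pair. Members at 1 TPM or more numbered 3 and 4 in the mESC libraries, 2 in each NPC library, and 7 and 5 in the NC libraries.

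**Figure D1:**
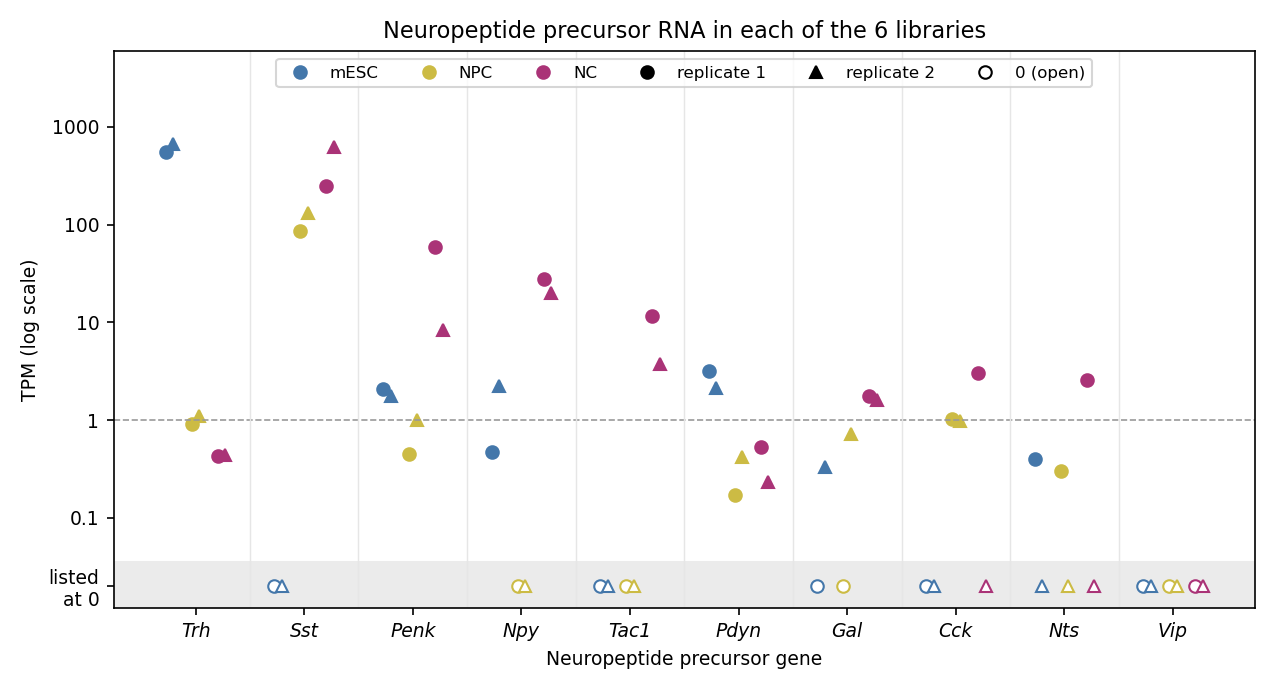
Level of each of the 10 precursors in TPM (log axis) in the 6 libraries; circles are replicate 1, triangles replicate 2, colours the stages mESC, NPC and NC, and open symbols in the grey strip are values listed at 0. Trh stands at 558 and 663 TPM in mESC and near 1 TPM or lower elsewhere, while Sst is at 0 in mESC and highest in NC.

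Stages were compared with limma on log2(TPM + 1) over all genes with at least 1 TPM in at least 2 libraries, at a Benjamini-Hochberg adjusted p under 0.05. Of the 10 members, 8 passed this filter, and Vip and Nts did not. Npy, Tac1 and Gal passed only through their NC libraries and Trh and Pdyn only through their mESC libraries, so the counts that follow describe the set and support nothing further. In NPC against mESC, Sst rose and Trh and Pdyn fell, which is 3 of the 8 tested members, against 40.0% of all 20232 tested genes called (26.0% higher, 14.0% lower). In NC against NPC, Sst, Npy, Tac1 and Penk rose and none fell, 4 members against a background of 25.3% (15.2% higher, 10.1% lower). In NC against mESC, Sst, Npy, Tac1, Penk and Gal rose and Trh and Pdyn fell, 7 members against a background of 59.9% (37.8% higher, 22.1% lower). The median log2 fold change of the 8 was -0.39 in NPC against mESC, 1.46 in NC against NPC and 2.09 in NC against mESC, beside 0.18, 0.11 and 0.31 for all tested genes. The comparisons share libraries, so they are not independent of each other. Genes that rose made up 65.0%, 60.1% and 63.2% of all called genes in the 3 comparisons in that order, but 51.2%, 47.7% and 47.2% after quantile normalization.

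**Figure D2:**
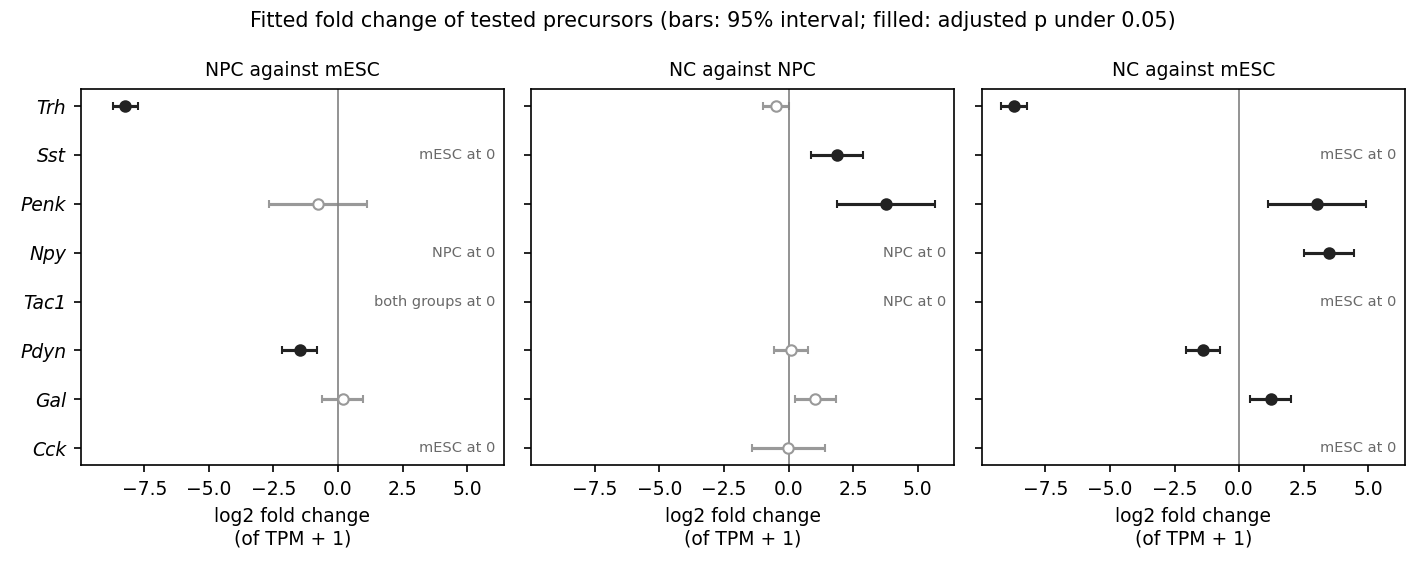
Fitted log2 fold change of TPM + 1 for the 8 tested precursors in the 3 comparisons, with 95% intervals; filled points have a limma adjusted p under 0.05, and no point is drawn where a stage was listed at 0 in both libraries. The intervals of Trh and Pdyn lie below 0 against mESC in both later stages, and those of Sst and Penk lie above 0 in NC against NPC.

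Sst (ENSMUSG00000004366.3, chromosome 16, 23889581 to 23890844, minus strand, mm10) encodes the precursor of somatostatin, an inhibitory peptide that lowers hormone secretion and neuronal firing. No Sst was listed in mESC (0 TPM in both libraries), whereas NPC held 86.7 and 132 TPM and NC 250.2 and 626 TPM. The 3 stages did not overlap, and NC replicate 2 was 2.50 times NC replicate 1. By level it ranked 2370 and 1388 among the 46517 gene IDs in NPC and 598 and 142 in NC. Sst averaged 438 ± 265 TPM in NC and 109 ± 32.2 TPM in NPC (SD, n = 2 each), a ratio of 4.0 and a fitted log2 fold change of 1.88 (standard error 0.425, limma adjusted p = 0.0227). It also rose in both stages over the mESC libraries at 0, with limma adjusted p = 0.000108 in NPC and 2.76e-05 in NC. The step in NC against NPC did not pass without either NPC library, either mESC library or NC replicate 2 (limma adjusted p from 0.0649 to 0.162), nor with no filter on low values or with only the 2 stages fitted (0.0969 and 0.0795), and its log2 fold change was 1.22 without NC replicate 2. The rise over mESC passed under all 16 other settings.

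The Sst promoter is shown because it holds the cyclic AMP response element, the palindrome TGACGTCA through which the factor CREB is known, from work on the rat gene, to act on somatostatin transcription. The 250 bases before the start of Sst, Vip and Trh follow from RefSeq on GRCm38.p6, each 5′ to 3′ on the gene's own strand, with the palindrome in capitals, or its core TGACG, which on the other strand reads as CGTCA. They lie at chr16:23890845-23891094 on the minus strand, chr10:5638968-5639217 on the plus strand and chr6:92244651-92244900 on the minus strand. Vip is shown as a peptide gene with a core and no RNA listed, and Trh as the stem cell gene.
Sst: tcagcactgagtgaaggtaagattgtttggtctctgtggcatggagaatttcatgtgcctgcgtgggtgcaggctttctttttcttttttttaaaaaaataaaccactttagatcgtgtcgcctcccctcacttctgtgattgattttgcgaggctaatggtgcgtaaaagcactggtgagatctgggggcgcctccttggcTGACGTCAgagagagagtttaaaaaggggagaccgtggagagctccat
Vip: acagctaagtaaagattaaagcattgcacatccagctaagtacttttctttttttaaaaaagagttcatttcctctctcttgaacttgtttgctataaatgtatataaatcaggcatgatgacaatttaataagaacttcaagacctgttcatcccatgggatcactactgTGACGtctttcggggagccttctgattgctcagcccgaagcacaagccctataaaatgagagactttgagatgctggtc
Trh: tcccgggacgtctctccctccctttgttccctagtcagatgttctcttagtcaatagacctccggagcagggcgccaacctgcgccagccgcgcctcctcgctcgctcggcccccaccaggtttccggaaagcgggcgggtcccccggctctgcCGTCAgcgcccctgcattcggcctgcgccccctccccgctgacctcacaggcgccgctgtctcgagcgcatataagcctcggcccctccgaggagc

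Promoter windows were found for 9 of the 10 members, with 2 windows for Pdyn. The full palindrome, searched on both strands, was in the Sst window alone among these 10 windows, 48 to 41 bases before the start, and in 1.55% of all 32851 promoter windows of the same length. The core TGACG, which the palindrome contains on both strands, was in the windows of 6 members (Cck, Nts, Sst, Tac1, Trh and Vip) and in 17.8% of all windows. These 6 include Sst and Trh, the leading genes, and also Vip, listed at 0 throughout. A match is a description of the sequence and not a binding site.

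Somatostatin acts on 5 receptors of the inhibitory G protein class. Sstr2, the receptor most widely found in brain, stood at 0.318 and 0.159 TPM in mESC, 11.5 and 13.5 TPM in NPC, and 65.9 and 48.4 TPM in NC, so that it rose at both steps (NPC against mESC log2 fold change 3.44, standard error 0.248, limma adjusted p = 0.000172; NC against NPC 2.1, standard error 0.248, 0.00404). The second step missed the threshold without NPC replicate 1 (limma adjusted p = 0.0572). Sstr1 was listed at 0 in mESC and stood at 0.0606 and 0.235 TPM in NPC and 15.3 and 2.38 TPM in NC. It rose in NC against NPC (limma adjusted p = 0.0302), a call that ended under 8 of 15 other settings, among them without either NPC library. Sstr3 had 0.775 and 1.49 TPM in NPC and was listed at 0 in mESC (limma adjusted p = 0.0281, not passed under 5 of 15 other settings). Cort encodes cortistatin, a close relative of somatostatin that binds the same receptors, and held 5.12 and 5.58 TPM in mESC, 2.59 and 4.48 TPM in NPC and 3.26 and 2.83 TPM in NC, with no comparison passing.

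Trh (ENSMUSG00000005892.4, chromosome 6, 92242061 to 92244650, minus strand) encodes the precursor that holds several copies of thyrotropin-releasing hormone, the hypothalamic peptide that starts the thyroid axis. It stood at 558 and 663 TPM in mESC, 0.919 and 1.10 TPM in NPC, and 0.432 and 0.440 TPM in NC. The stem cell libraries were far above all 4 later libraries, which held near 1 TPM or less, and Trh ranked 217 and 191 among all gene IDs there. It fell in NC against mESC with a log2 fold change of -8.73 (standard error 0.206, limma adjusted p = 6.94e-06), and the fall passed under all 16 other settings in both later stages. The mean read depth over its exons was 0.314 to 0.986 in NPC and NC, which is less than a read per base. At that depth NC and NPC did not differ by the test (log2 fold change -0.48, 95% interval -0.98 to 0.0097, limma adjusted p = 0.133), although the pair passed with a pseudocount of 0.1 (0.0345).

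The receptors of Trh and the peptidase Trhde were near 0 where Trh was high. The Trh receptor Trhr was listed at 0 in mESC and NPC and stood at 0.205 and 0.599 TPM in NC. The second receptor, Trhr2, was above 0 in a single library, NPC replicate 1, at 0.0166 TPM. Trhde, the surface peptidase that destroys the hormone, was listed at 0 in mESC and had 1.40 and 0.551 TPM in NC. None of the 3 reached the filter for testing.

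Npy (ENSMUSG00000029819.6, chromosome 6, 49822710 to 49829507, plus strand) encodes neuropeptide Y, which promotes feeding and dampens transmitter release. It stood at 0.469 and 2.22 TPM in mESC, was listed at 0 in both NPC libraries, and reached 27.6 and 19.9 TPM in NC. The NC libraries lay above the 4 others and close to each other. Npy averaged 23.8 ± 5.46 TPM in NC and 1.34 ± 1.24 TPM in mESC (SD, n = 2 each; log2 fold change 3.49, standard error 0.410, limma adjusted p = 0.000599). It also rose over the NPC libraries at 0 (limma adjusted p = 0.00296). Both calls passed under all 16 other settings, and with them Npy was the only member to pass in NC against NPC without NPC replicate 1 and without NPC replicate 2. The lower NPC values did not pass against mESC (limma adjusted p = 0.0705), but did so with a pseudocount of 0.1, after quantile normalization and without mESC replicate 1 (0.00988 to 0.0362). Its relatives were low: Pyy, the gut peptide YY, had 1.76 TPM in mESC replicate 1, 1.15 TPM in NPC replicate 1 and was at 0 elsewhere, and Ppy, pancreatic polypeptide, was listed at 0 throughout. Of the receptors, Npy1r had 1.65 and 1.00 TPM in NC and 0.0740 and 0.344 TPM in mESC (log2 fold change 0.94, standard error 0.265, limma adjusted p = 0.0209, not passed without mESC replicate 1 or after quantile normalization), while Npy5r stayed at or below 0.486 TPM and Npy2r and Npy4r at or below 0.0918 TPM in all 6 libraries, and Npy6r was at 0.

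The opioid precursors went different ways. Penk (ENSMUSG00000045573.9, chromosome 4, 4133531 to 4138819, minus strand) encodes the enkephalins, ligands of the delta and mu receptors. It stood at 2.08 and 1.75 TPM in mESC, 0.451 and 0.997 TPM in NPC, and 58.6 and 8.25 TPM in NC. All NC values exceeded all earlier ones, and NC replicate 1 was 7.10 times NC replicate 2. Penk rose in NC against NPC (log2 fold change 3.79, standard error 0.789, limma adjusted p = 0.0176) and in NC against mESC (3.01, standard error 0.789, 0.0157). The call against NPC ended under 6 of 16 other settings, among them without either NPC and either mESC library (limma adjusted p from 0.0725 to 0.126), and the call against mESC ended without either mESC library (0.105 and 0.124) and with no filter (0.0754). The first bases of Penk overlap A830012C17Rik on the opposite strand (0 to 0.548 TPM), and the sources used here do not give whether reads were assigned by strand.

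Pdyn (ENSMUSG00000027400.10, chromosome 2, 129686565 to 129699844, minus strand) encodes the dynorphins, ligands of the kappa receptor. Its values were 3.18 and 2.11 TPM in mESC, 0.172 and 0.422 TPM in NPC, and 0.533 and 0.230 TPM in NC. Both mESC libraries lay above the 4 later ones, which overlap each other. Pdyn fell in NPC against mESC (log2 fold change -1.48, standard error 0.279, limma adjusted p = 0.00684) and in NC against mESC (-1.39, standard error 0.279, 0.00543). The first of these calls missed the threshold without NPC replicate 1 (limma adjusted p = 0.0513), and NC against NPC did not pass (0.09, 95% interval -0.58 to 0.76, 0.847). Outside the members, Pnoc, the precursor of nociceptin, had 32.2 and 18.2 TPM in NC and at most 0.178 TPM in the other libraries (NC against NPC log2 fold change 4.54, standard error 0.331, limma adjusted p = 0.00286). Pomc, the precursor of beta-endorphin and the melanocortins, was at 1.40 to 3.18 TPM in all 6 libraries and passed no comparison. The 3 opioid receptors were low in all libraries: Oprm1 reached 0.270 TPM, Oprk1 0.535 TPM and Oprd1 1.00 TPM, the last in NPC replicate 1.

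Tac1 (ENSMUSG00000061762.11, chromosome 6, 7554879 to 7565834, plus strand) encodes substance P and neurokinin A, excitatory peptides of pain pathways. It was listed at 0 in all mESC and NPC libraries and stood at 11.7 and 3.73 TPM in NC. The 2 NC libraries differ 3.13-fold but are the only ones above 0. Tac1 rose over NPC (limma adjusted p = 0.00736) and over mESC (0.00182), and the first call ended without NPC replicate 1 or 2 (0.0719 and 0.0572). The deposited exon depth of Tac1 was 2.63 and 0.636 in the NC libraries. Of the other tachykinin genes, Tac2 was listed at 0 throughout and Tac4 did not exceed 0.547 TPM. The substance P receptor Tacr1 had 3.77 and 1.35 TPM in NC and 0 and 0.0158 TPM in mESC (log2 fold change 1.73, standard error 0.371, limma adjusted p = 0.00712, not passed without either mESC library), with 0.657 and 0.327 TPM in NPC. Tacr3 reached 0.858 TPM in NC replicate 1, and Tacr2 was listed at 0.

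The remaining 4 members stayed at 3.00 TPM or lower in every library. Gal (ENSMUSG00000024907.6, chromosome 19, 3409919 to 3414472, minus strand), the precursor of galanin, had 0 and 0.334 TPM in mESC, 0 and 0.713 TPM in NPC, and 1.77 and 1.62 TPM in NC. The NC pair lay above the others and agreed closely, and Gal rose in NC against mESC (log2 fold change 1.22, standard error 0.329, limma adjusted p = 0.0176). The call ended under 5 of 15 other settings, among them without mESC replicate 1 and without either NC library (limma adjusted p from 0.0580 to 0.0959), and NC against NPC did not pass (1.04, 95% interval 0.25 to 1.83, 0.0613). The receptor Galr2 had 1.11 and 3.77 TPM in NC and did not pass, Galr1 did not exceed 0.0936 TPM, and Galr3 was not analysed here.

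Cck (ENSMUSG00000032532.6, chromosome 9, 121489825 to 121495689, minus strand), the precursor of cholecystokinin, a satiety peptide and cortical cotransmitter, was listed at 0 in mESC, had 1.03 and 0.983 TPM in NPC and 3.00 and 0 TPM in NC. The NPC libraries lay between the NC ones, and no comparison passed (limma adjusted p from 0.188 to 1). The sign of NC against NPC turned on a single library, with log2 fold changes of 0.99 without NC replicate 2 and -1.01 without NC replicate 1 (limma adjusted p = 0.0386 and 0.0292). Nts (ENSMUSG00000019890.3, chromosome 10, 102481760 to 102490418, minus strand), the precursor of neurotensin, had 0.400 and 0 TPM in mESC, 0.303 and 0 TPM in NPC, and 2.57 and 0 TPM in NC. It was above 0 in replicate 1 of each stage and listed at 0 in replicate 2 of each, at exon depths of 0.298, 0.308 and 1.87.

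Vip (ENSMUSG00000019772.4, chromosome 10, 5639218 to 5647614, plus strand), the precursor of vasoactive intestinal peptide, a marker of interneurons that inhibit other interneurons, was listed at 0 in all 6 libraries. Its relative Adcyap1, the precursor of PACAP, had 0.0844 and 0 TPM in mESC, 1.15 and 0.878 TPM in NPC, and 9.13 and 1.92 TPM in NC, and rose in NC against mESC (log2 fold change 2.38, standard error 0.550, limma adjusted p = 0.00955, not passed without either mESC library). The PACAP receptor Adcyap1r1 had 66.4 and 10.8 TPM in NC and 3.04 and 2.20 TPM in NPC (log2 fold change 2.97, standard error 0.742, limma adjusted p = 0.0309, not passed under 7 of 16 other settings, among them without either NPC library). The shared VIP and PACAP receptors Vipr1 and Vipr2 reached 3.46 and 0.715 TPM. The cholecystokinin receptors Cckar and Cckbr did not exceed 0.406 TPM. Of the neurotensin receptors, Ntsr1 reached 1.44 TPM and Ntsr2 1.96 TPM, both in NC replicate 1, and Sort1, a sorting receptor that also binds neurotensin, was at 20.2 and 13.7 TPM in mESC, 86.8 and 97.4 TPM in NPC, and 90.8 and 108 TPM in NC (NPC against mESC log2 fold change 2.39, standard error 0.211, limma adjusted p = 0.000361).

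The 2 NC libraries differed in several peptide genes, and not all in the same direction. Penk, Tac1 and Pdyn were 7.10, 3.13 and 2.32 times higher in NC replicate 1, where alone of the pair Cck and Nts were above 0. Sst ran the other way, at 0.400 of the NC replicate 2 level, and Npy, Gal and Trh were at 1.39, 1.09 and 0.98. Over the same pair, the summed neuron, GABAergic and glutamatergic markers had ratios of 1.10, 1.13 and 1.27. The 6 astrocyte markers summed to 256 TPM in NC replicate 1 and 51.8 TPM in NC replicate 2 (ratio 4.94), with 4 and 3 of them at 1 TPM or more, against 32.1 to 60.8 TPM in mESC and 85.8 to 92.0 TPM in NPC. Within that list, NC replicate 1 and NC replicate 2 had Aldoc at 98.6 and 3.02 TPM, Slc1a3 at 87.1 and 45.9 TPM, Aldh1l1 at 59.3 and 1.89 TPM, Gfap at 9.72 and 0.598 TPM, Aqp4 at 0.613 and 0 TPM, and S100b at 0.349 and 0.341 TPM. The 6 progenitor markers summed to 1235 and 451 TPM, and the cortical projection markers to 57.6 and 14.0 TPM, with Neurod6 at 14.7 and 0 TPM. Of the progenitor markers, Fabp7 differed most in TPM, at 792 in NC replicate 1 and 164 in NC replicate 2. In the same order Hes5 had 131 and 13.7 TPM, Pax6 78.5 and 33.5 TPM, Notch1 136 and 110 TPM, and Sox1 14.0 and 9.89 TPM. Nes went the other way, at 84.2 and 120 TPM. Markers of fibroblasts and smooth muscle summed to 873 and 1062 TPM in NC against 35.3 to 124 TPM in the 4 earlier libraries. The 12 endoderm and enteroendocrine markers summed to 265 and 141 TPM in mESC, 310 and 232 TPM in NPC, and 135 and 161 TPM in NC. The largest single values were Epcam at 168 and 109 TPM in mESC and Sox17 at 77.7 and 53.5 TPM in NPC. In NC they were Insm1 at 63.8 and 76.8 TPM and Neurod1 at 36.9 and 18.7 TPM. The sums therefore rest on different genes at different stages. In NPC against mESC, 5 of the 10 tested markers of this list rose and 1 fell, beside 26.0% and 14.0% of all tested genes. The part of these other cells in the peptide values was not tested.

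**Figure D3:**
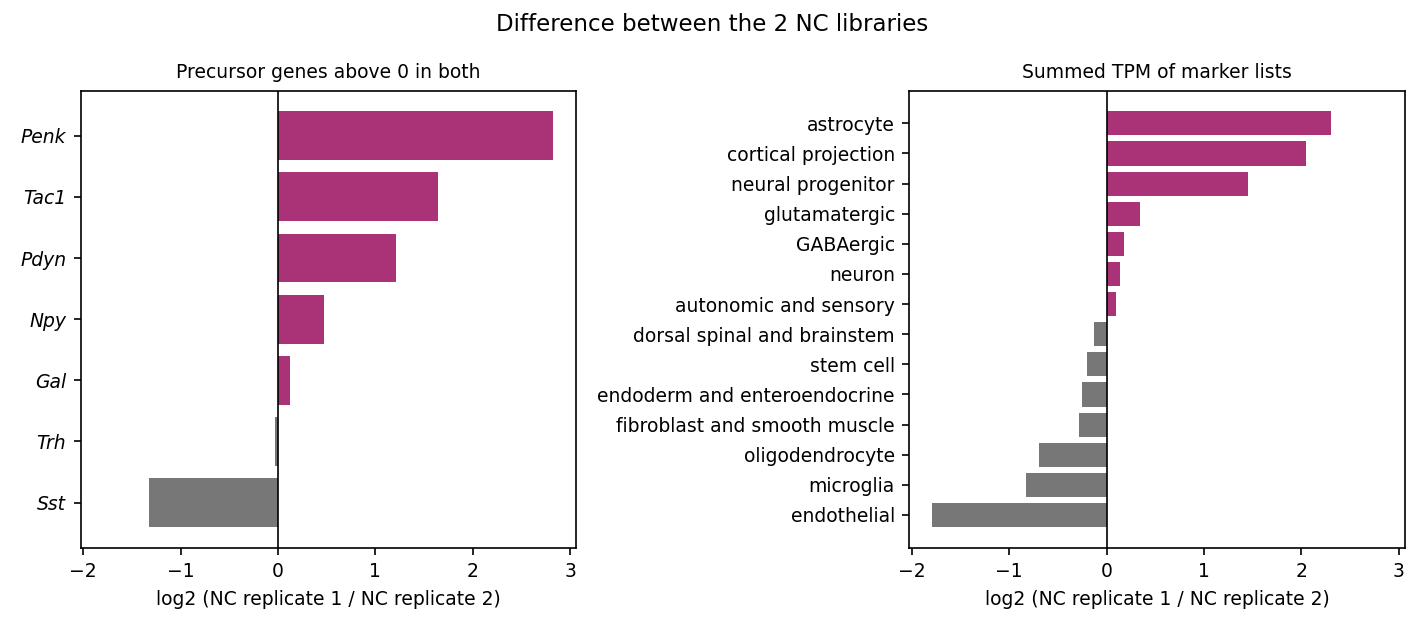
Log2 ratio of NC replicate 1 to NC replicate 2 for the 7 precursors above 0 in both NC libraries (left) and for the summed TPM of 14 marker lists (right); bars to the right are higher in replicate 1. Penk, Tac1 and the astrocyte, cortical projection and progenitor sums lie to the right, Sst to the left, and the neuron and GABAergic sums near 0.

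Several enzymes that mature the precursors were higher at the later stages, and others were not. Of 14 processing genes 13 were tested, among them Qpct, which passed the filter only through its NC libraries and was called higher there in both comparisons. In NPC against mESC 6 rose and 1 fell, beside 26.0% and 14.0% of all tested genes, and the median log2 fold change of 0.24 was near the 0.18 of all genes. In NC against NPC 7 rose and 1 fell, beside 15.2% and 10.1% of all genes, with a median of 1.08 against 0.11. In NC against mESC 9 rose and 1 fell, beside 37.8% and 22.1%, with a median of 1.83 against 0.31. Of these calls, that of Qpct did not pass under 11 of 15 other settings, among them median-of-ratios scaling, quantile normalization and FPKM. Pcsk2, the convertase that makes most short neuropeptides, was listed at 0 in mESC, had 3.76 and 3.79 TPM in NPC and 31.4 and 16.9 TPM in NC (NC against NPC log2 fold change 2.33, standard error 0.331, limma adjusted p = 0.00600, not passed without either NPC library). Its chaperone Scg5 averaged 38.8 ± 12.8 TPM in NPC and 0.485 ± 0.0258 TPM in mESC (log2 fold change 4.70, standard error 0.260, limma adjusted p = 6.94e-05). Cpe, the carboxypeptidase that trims the cut ends, averaged 408 ± 91.5 TPM in NC and 136 ± 26.7 TPM in NPC (log2 fold change 1.58, standard error 0.338, limma adjusted p = 0.0190). Pam, the amidating enzyme that many of these peptides need, had 78.4 and 69.7 TPM in NC and 12.7 and 7.31 TPM in mESC (log2 fold change 2.81, standard error 0.254, limma adjusted p = 0.000207).

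Pcsk1, the other neuroendocrine convertase, did not reach 1 TPM in any library and stood at 0 and 0.223 TPM in NC, while Pcsk1n, which encodes its inhibitor proSAAS, rose to 29.6 and 16.5 TPM in NC, against 2.14 and 4.80 TPM in NPC (log2 fold change 2.44, standard error 0.435, limma adjusted p = 0.0111, not passed without NPC replicate 1 or NC replicate 1). Pcsk6, a convertase of growth factor precursors, was the gene that fell in each comparison (NC against mESC log2 fold change -2.36, standard error 0.279, limma adjusted p = 0.000608). Its fall in NC against NPC did not pass without any 1 of the 6 libraries. Without NPC replicate 1, limma called 309 genes in NC against NPC, none of them a processing gene, and Cpe and Qpct also missed the threshold without NPC replicate 2 and without either NC library.

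Of 17 genes of the dense-core vesicle 15 were tested, and none was called lower in any comparison. In NPC against mESC 9 rose, in NC against NPC 12 and in NC against mESC 15, beside 26.0%, 15.2% and 37.8% of all tested genes. Their median log2 fold changes were 1.12, 2.15 and 3.52 in the same order, beside 0.18, 0.11 and 0.31 for all genes. Scg2 and Rph3a passed the filter on low values only through their NC libraries, where they are high, and Rab27b and Baiap3 did not pass it. The counts in NC against NPC and in NC against mESC therefore partly follow from the filter. Chgb and Scg3 rose in NPC, to 10.8 and 16.0 TPM for Chgb and 25.2 and 28.7 TPM for Scg3, against at most 0.460 TPM in mESC (limma adjusted p = 0.000202 and 3.02e-05). Both rose again in NC against NPC, with averages of 61.8 and 13.4 TPM for Chgb and 115 and 27.0 TPM for Scg3 (limma adjusted p = 0.00414 and 0.00299, the call for Chgb not passed without NPC replicate 1). Scg2, which also gives the peptide secretoneurin, was listed at 0 in mESC, stood at 0.705 and 0.701 TPM in NPC and reached 46.5 and 24.1 TPM in NC (log2 fold change 4.34 over NPC, standard error 0.345, limma adjusted p = 0.00292). Chga averaged 70.6 ± 13.4 TPM in NC and 10.2 ± 2.59 TPM in NPC (log2 fold change 2.68, standard error 0.239, limma adjusted p = 0.00296). Vgf, itself a peptide precursor, had 14.8 and 71.9 TPM in NC and 1.70 and 1.60 TPM in NPC (log2 fold change 3.68, standard error 0.661, limma adjusted p = 0.0113, not passed without either NPC library). Without NPC replicate 1, 5 of the 15 were called higher in NC than in NPC.

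Of 29 receptors of the members, 8 were tested, and among them 3 rose in NPC against mESC, 3 in NC against NPC and 7 in NC against mESC, with none lower, beside 26.0%, 15.2% and 37.8% of all tested genes higher. The medians were 0.63, 0.97 and 2.12, beside 0.18, 0.11 and 0.31 for all genes. Sstr1, Npy1r, Tacr1 and Galr2, 4 of the 8, passed the filter only through their NC libraries, so the counts of higher receptors in NC follow in part from the filter. Sort1, Sstr2 and Adcyap1r1 held most of the receptor level, and 2 receptors (Npy6r and Tacr2) were at 0 in all 6 libraries. The 29 listed receptors include Adcyap1r1, the PACAP receptor, although the PACAP precursor Adcyap1 is not a member. Adcyap1r1 is among the genes called higher in NC against NPC and in NC against mESC. The counts fell to 2 in NC against mESC without mESC replicate 1 and to 0 in NC against NPC without NPC replicate 1.

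**Figure D4:**
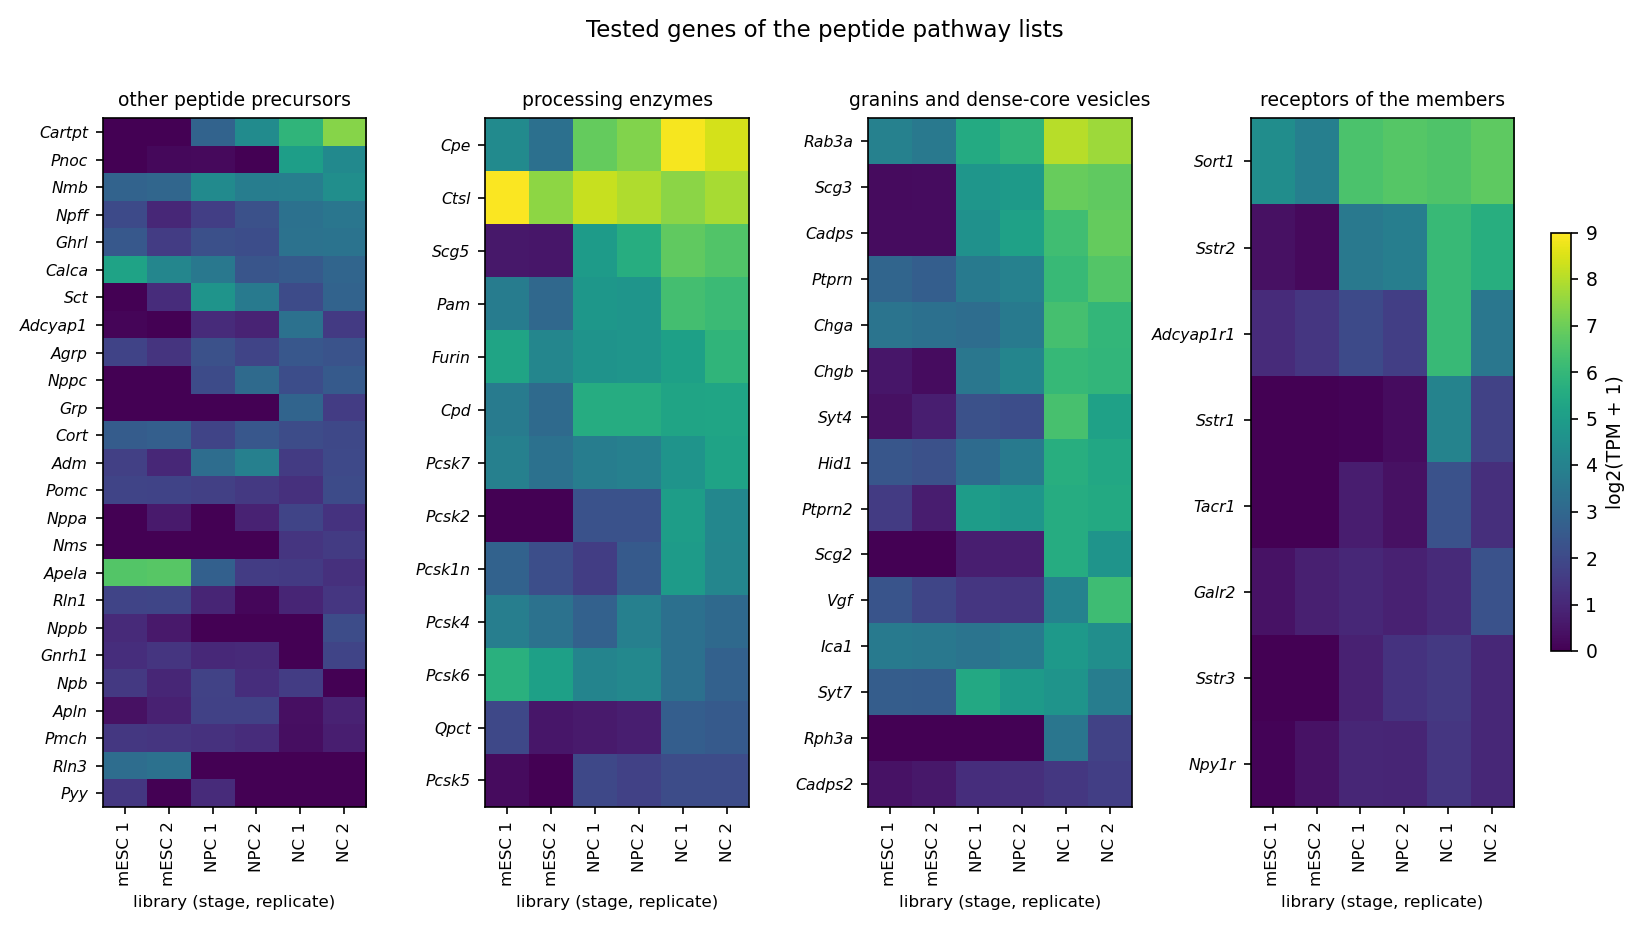
Level as log2(TPM + 1) of the tested genes of 4 lists (other peptide precursors, processing enzymes, granins and dense-core vesicles, receptors of the members) in the 6 libraries, ordered within a list by the NC mean. Scg3, Cadps, Scg5 and Sstr2 are dark in mESC and brighter in NPC and NC, while Apela is bright in mESC alone.

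Beside the members, 48 further peptide precursors were listed, of which 25 were tested and 14 were at 0 in all 6 libraries, these last including the hypothalamic Avp, Oxt, Hcrt, Ghrh and Kiss1. In NPC against mESC 6 rose and 4 fell, in NC against NPC 6 rose and 2 fell, and in NC against mESC 11 rose and 4 fell, with medians of 0.02, 0.06 and 0.41. Over all tested genes 26.0%, 15.2% and 37.8% were higher and 14.0%, 10.1% and 22.1% lower, with medians of 0.18, 0.11 and 0.31. The list's shares in NPC against mESC were thus near those of all genes. Adcyap1, Pnoc, Grp, Nms and Nppa passed the filter only through their NC libraries. Rln1 and Rln3 passed it only through their mESC libraries, and Apln only through its NPC libraries. The counts of called genes therefore follow in part from the filter. The counts of higher genes were 3 without mESC replicate 1 or 2 in the first comparison, 1 without NPC replicate 1 in the second and 7 without mESC replicate 1 in the third. Cartpt, which encodes the satiety peptide CART, followed the stage order of Sst, listed at 0 in mESC, at 6.28 and 19.5 TPM in NPC and at 58.9 and 163 TPM in NC (NC against NPC log2 fold change 3.02, standard error 0.609, limma adjusted p = 0.0158, not passed under 6 of 16 other settings, among them without NPC replicate 1 and without NC replicate 2). Grp, gastrin-releasing peptide of itch neurons, was above 0 in NC alone (6.52 and 2.01 TPM, limma adjusted p = 0.0132 over NPC, not passed without either NPC library). Sct, secretin, had 24.3 and 12.2 TPM in NPC and 0 and 1.22 TPM in mESC (log2 fold change 3.62, standard error 0.523, limma adjusted p = 0.00243). Precursors lower in NPC than in mESC were Apela, Calca, Rln1 and Rln3. Apela, a ligand of the apelin receptor, was at 5.84 and 2.03 TPM in NPC, against 94.7 and 99.9 TPM in mESC (log2 fold change -4.43, standard error 0.388, limma adjusted p = 0.000349), and Rln3, relaxin-3, was listed at 0 in the 4 NPC and NC libraries, against 8.36 and 9.22 TPM in mESC. Calca, the precursor of calcitonin and CGRP, named after its values were seen, averaged 7.68 ± 4.92 TPM in NPC and 26.4 ± 14.2 TPM in mESC (SD, n = 2 each; log2 fold change -1.68, standard error 0.507, limma adjusted p = 0.0382, not passed under 7 of 16 other settings, among them without either mESC library, NPC replicate 2 or either NC library).

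The genes most like each member were taken as the 3 tested genes with the smallest Euclidean distance over the 6 libraries, after centring log2(TPM + 1) on each gene's mean, leaving out predicted gene models. For Sst these were Robo3, Nhlh2 and Dcx (distances 0.44, 1.20 and 1.32), with Robo3 at 133 and 223 TPM in NPC and 465 and 830.3 TPM in NC. Trh was nearest to Utf1, Zfp42 and the pseudogene Tdgf1-ps1 (0.61, 0.75 and 0.88), all of them high in mESC alone. Npy was nearest to Sv2c, Tnik and Pnoc (1.39, 1.42 and 1.47), and Tac1 to AC153941.1, Foxs1 and Nxph1 (0.28, 0.37 and 0.39). For Penk the nearest were Skor2, Mir3093 and Serpina3n at 1.17 to 1.21, each higher in NC replicate 1 than in NC replicate 2. Distances are small for genes of low level, and with 6 libraries many genes share a pattern.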

How the data were processed

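Per the submitters' processing notes, the build was mm10 and the tools were StringTie 2.1.5, STAR 2.7.9a, DESeq2, cutadapt 3.4, FastQC and R 4.0.3, given without order or settings. Per the file headers, each table is StringTie's gene abundance output for 1 library. The deposited TPM is scaled to the same sum per library, the deposited FPKM is per length and library size, and the deposited coverage signal is the mean read depth over a gene's exons. There are no read counts, so no counting interval can be given. Aligned bases come from the commonest ratio of coverage to FPKM. Repeated lines of a gene ID (2 to 9 per table) were summed.

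The fit used limma 3.58.1 in R 4.3.3 (lmFit, eBayes with trend, two-sided) on log2(TPM + 1) for all 6 libraries with 3 group means, no replicate block and 3 residual degrees of freedom, adjusted over 20232 genes. No permutation test of 2 against 2 libraries can reach the threshold. No fold is given against a stage at 0 in both libraries. Median-of-ratios scaling moved the median log2 fold change of all genes from 0.18 to -0.01 for NPC against mESC, from 0.11 to 0.04 for NC against NPC, and from 0.31 to 0.05 for NC against mESC. Members, lists and the rule for named genes (all members, and per list and comparison up to 4 called genes with the largest fold change, plus partners of a member) were chosen with earlier results of these data known. The promoter motifs were chosen after the values were seen.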

Additional observations from a re-analysis of the deposited data

How the results depend on the processing

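Each result was recomputed under 16 alternatives: pseudocounts of 0.1 and 5, no filter or at least 5 TPM in 2 libraries, median-of-ratios and quantile scaling, FPKM, only the 2 stages compared, no trend, the replicate block, and each of the 6 libraries left out. Of 357 values of member fold changes, 315 kept direction and call, 24 lost the call, 9 gained it and 9 changed sign, all of the last from a value that had not passed. Leaving out 1 library gave 4032 to 8484 called genes in NPC against mESC (8100 with all), 309 to 4156 in NC against NPC (5123) and 9499 to 11187 in NC against mESC (12118). The lowest counts came without NPC replicate 2, NPC replicate 1 and mESC replicate 2 in that order of comparisons, and a lone library was then assumed to vary like the other groups. Called members ranged from 2 to 4, 1 to 5 and 5 to 7 in the same order, against 3, 4 and 7. With no filter, 3166 genes and 2 members were called in NC against NPC, with only the 2 stages fitted 2 members, and in NC against mESC with at least 5 TPM 4 members, since only 4 were tested; for the others the cause was not tested. Sign changes were those of Gal in NPC against mESC (-0.078 after quantile scaling, and from -0.21 to 0.57 with 1 library left out), Cck in NC against NPC (0.074 with a pseudocount of 5, 0.035 with FPKM, and from -1.01 to 0.99 with 1 library left out) and Pdyn in NC against NPC (from -0.069 to 0.25 with 1 library left out). Same-numbered libraries did not deviate together over all tested genes (correlations of 0.05, -0.07 and -0.08 between stages). Whether they share a culture or a day is not stated, and correlations over genes cannot settle it. With the replicate block, 7368, 4247 and 11575 genes were called, and 3, 4 and 7 members, the same members as without it. Exon depth under 1 limits what can be said of Trh after the stem cell stage, and of Pdyn, Nts and Gal in most libraries. Among values above 0, the same limit holds for Penk in both NPC libraries (0.407 and 0.789) and Tac1 in NC replicate 2 (0.636). It also holds for Npy in mESC replicate 1 (0.350) and Cck in NPC replicate 2 (0.878).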

Other observations

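Of 14 peptidases that can degrade neuropeptides, some at the cell surface and others, such as Thop1 and Prep, largely cytosolic, 13 were tested. In NPC against mESC 1 rose and 5 fell (median log2 fold change -0.41), in NC against NPC 2 rose and 3 fell (0.39), and in NC against mESC 1 rose and 5 fell (0.02). Over all tested genes 26.0%, 15.2% and 37.8% were higher and 14.0%, 10.1% and 22.1% lower, with medians of 0.18, 0.11 and 0.31. Without NPC replicate 1 the first 2 comparisons had 1 and 0 peptidases called. Nln, neurolysin, which cleaves neurotensin, had 41.3 and 40.8 TPM in NC and 19.0 and 21.6 TPM in NPC (log2 fold change 0.98, standard error 0.169, limma adjusted p = 0.0101, not passed without either NPC library). Mme, neprilysin, which degrades enkephalins and substance P, had 2.75 and 4.78 TPM in NC and 16.4 and 10.5 TPM in mESC (log2 fold change -1.60, standard error 0.334, limma adjusted p = 0.00629, and 0.0533 without mESC replicate 1). Dpp4, which clips neuropeptide Y, had 0.215 and 0.221 TPM in NC and 12.5 and 4.11 TPM in mESC (-2.77, standard error 0.460, 0.00249), and Ide, the insulin-degrading enzyme, had 38.2 and 30.8 TPM in NC and 87.3 and 97.7 TPM in mESC (-1.40, standard error 0.160, 0.000532). Rnpep, aminopeptidase B, rose in NC against mESC (1.29, standard error 0.153, 0.000616).

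Of 12 genes of the cyclic AMP and CREB pathway, 7 rose and 1 fell in NPC against mESC, 3 rose and 1 fell in NC against NPC, and 9 rose and 1 fell in NC against mESC, with medians of 0.77, 0.34 and 1.16, beside the shares and medians of all genes given above. The higher count was 4 without NPC replicate 2 in the first comparison and 0 without NPC replicate 1 in the second. Creb1 averaged 38.9 ± 5.38 TPM in NPC and 14.6 ± 2.54 TPM in mESC (log2 fold change 1.36, standard error 0.192, limma adjusted p = 0.00223), and Prkar1b, a neuronal regulatory subunit of protein kinase A, averaged 69.2 ± 27.5 TPM in NC and 2.27 ± 1.67 TPM in mESC (4.46, standard error 0.422, 0.000247). Atf1, a CREB relative, fell to 20.9 and 23.9 TPM in NC, against 72.9 and 74.9 TPM in mESC.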
